A study of Mus musculus with 10 samples.

Results

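The IL-1 family is a group of inflammatory cytokines with their receptors, decoys and antagonists. The 10 members described here are the ligands Il1a, Il1b, Il18 and Il33, the receptor antagonist Il1rn, the receptors Il1r1, Il18r1 and Il1rl1, the accessory chain Il1rap and the decoy receptor Il1r2. They were chosen by gene symbol from a table of 24525 genes, and all 10 were found in it. The table gives FPKM, fragments per kilobase of transcript scaled to library depth, for 5 tumours of the colorectum and 5 pieces of colon tissue beside tumours, called adjacent here. All were from male C57BL/6 mice (C57BL/6N in the growth protocol) treated with azoxymethane (AOM), a mutagen of the colon, and with dextran sulfate sodium (DSS), an agent that damages colonic epithelium. Per the labels, mice aged 7 weeks and weighing 18 to 20 g had 1 injection of AOM at 12.5 mg/kg. DSS began 1 week later and ran for 3 cycles of 3 weeks, in which 5 days on 2% DSS were followed by 16 days on plain water. Both tissues were sampled 10 weeks after AOM, so adjacent tissue had the same AOM and DSS as the tumours. The labels also count 3 untreated mice of 15, and no library used here was labelled as untreated. The source label gives the same mouse number for all 10 libraries, while the sample titles number each tissue 1 to 5. Which libraries share an animal is therefore not settled, and p-values measure only the spread between these samples.

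IL-1α and IL-1β, the products of Il1a and Il1b, act through the receptor IL-1R1 with the shared accessory chain encoded by Il1rap, and signal through MyD88 and IRAK kinases to NF-κB. The antagonist encoded by Il1rn occupies IL-1R1 without signalling, and IL-1R2 binds the ligands as a decoy with no signalling domain. IL-18 acts through the chains encoded by Il18r1 and Il18rap and is held by a soluble binding protein, and IL-33 acts through ST2, the product of Il1rl1, together with the shared accessory chain. In the colon, IL-18 and IL-1 receptor antagonist are made by epithelial cells among others, IL-1β mainly by myeloid cells, and IL-33 by stromal cells and other barrier cells. IL-1β and IL-18 are made as precursors that caspase-1 cleaves, so a transcript level is not a level of active cytokine.

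Tumours held far more transcript of the IL-33 receptor, of IL-33, of both IL-1 agonists and of both IL-1 receptors than adjacent tissue, and less Il18. Il1rl1 averaged 64.1 ± 26.1 FPKM in tumours and 8.22 ± 5.06 FPKM in adjacent tissue (SD, n = 5 each), Il33 18.9 ± 4.36 FPKM in tumours and 2.71 ± 0.969 FPKM in adjacent tissue, and Il1b 44.3 ± 20.3 FPKM in tumours and 6.79 ± 4.77 FPKM in adjacent tissue. Il18, at 31.9 ± 9.55 FPKM in tumours and 90.5 ± 13.5 FPKM in adjacent tissue, fell. The antagonist gene Il1rn passed as lower in tumours, but in 7 of 10 fits with 1 library left out it did not pass, and it exceeded Il1b in 2 of 5 tumours, against 5 of 5 adjacent samples. Il1rap and Il18r1 passed as deposited but not once the libraries were rescaled.

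Changes are tumour minus adjacent on the log2(FPKM + 1) scale, from a limma fit over the 13016 genes that averaged 1 FPKM or more, with Benjamini-Hochberg adjustment over all of them and a threshold of 0.05. The words rose and fell are kept for genes past it. Of the 10 members 9 met the expression filter, 7 rose and 2 fell. Across all tested genes 57.2% rose and 19.3% fell, so these counts alone do not set the family apart. Il1a and Il1r2 averaged only 0.976 and 1.13 FPKM in adjacent tissue, and Il1a met the filter only through the tumours. Il18r1 averaged below 1 FPKM, and its values are from a fit of 19733 genes with no filter, in which 44.5% rose. Over all tested genes the median change was 0.35, so the changes of members, and others where it matters, are also given with library medians subtracted or with each library's FPKM divided by a library factor, its median ratio to the geometric mean library. With medians subtracted 6 members rose and 2 fell, against 34.5% and 33.3% of all tested genes, and with library factors 6 and 2, against 34.7% and 34.9%. The tumour and adjacent values of 6 of the 9 did not overlap, 5 with tumours higher, against 60.9% and 46.5% of all tested genes. In bulk tissue, fewer cells of a type and less RNA per cell cannot be told apart.

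**Figure D1:**
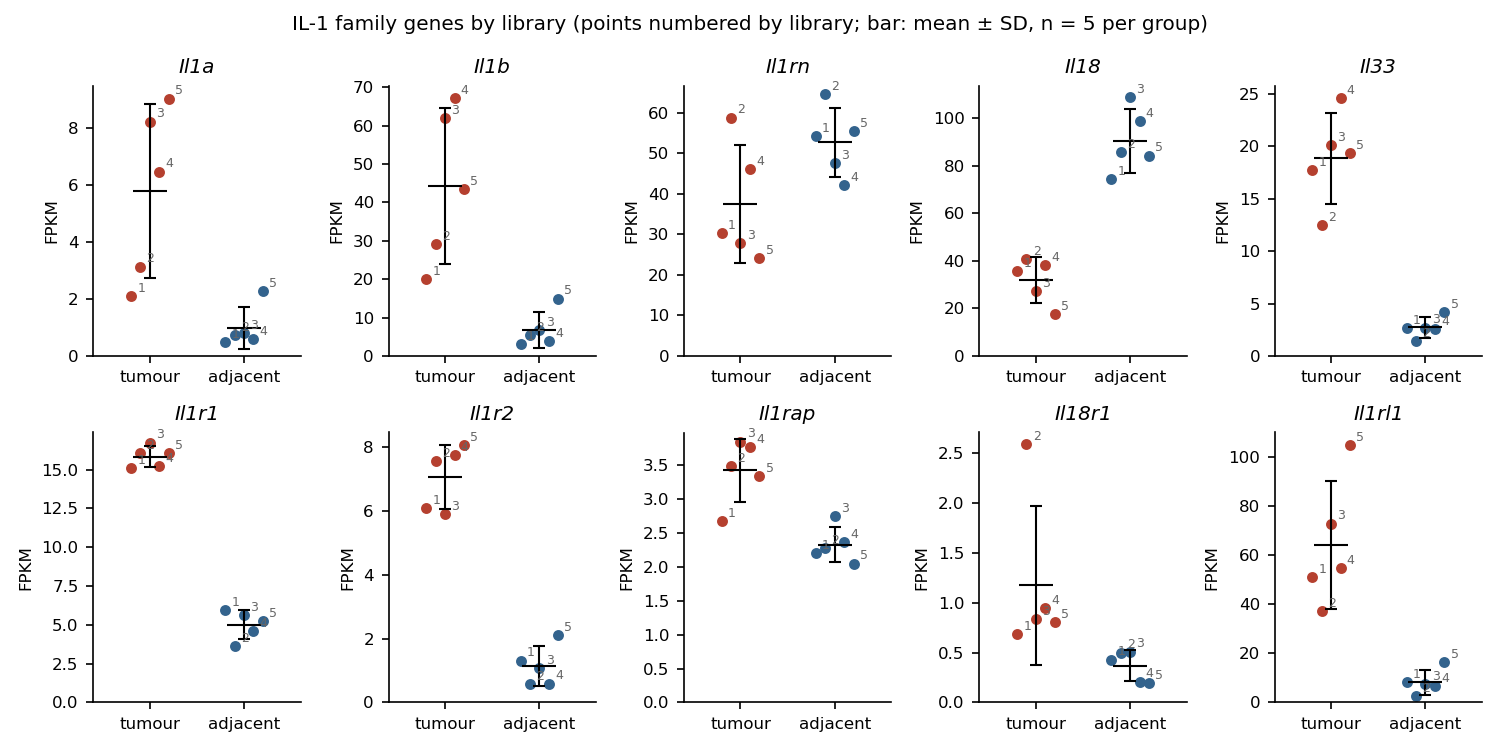
FPKM of the 10 IL-1 family genes in each library, tumours left and adjacent samples right, with points numbered by library, and the mean and SD of each group (n = 5). Il1b, Il1rl1, Il33, Il1r1 and Il1r2 in tumours all lie above every adjacent sample, Il18 lies below, and adjacent sample 5 is the highest adjacent sample for Il1a, Il1b, Il1r2, Il33 and Il1rl1.

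**Figure D2:**
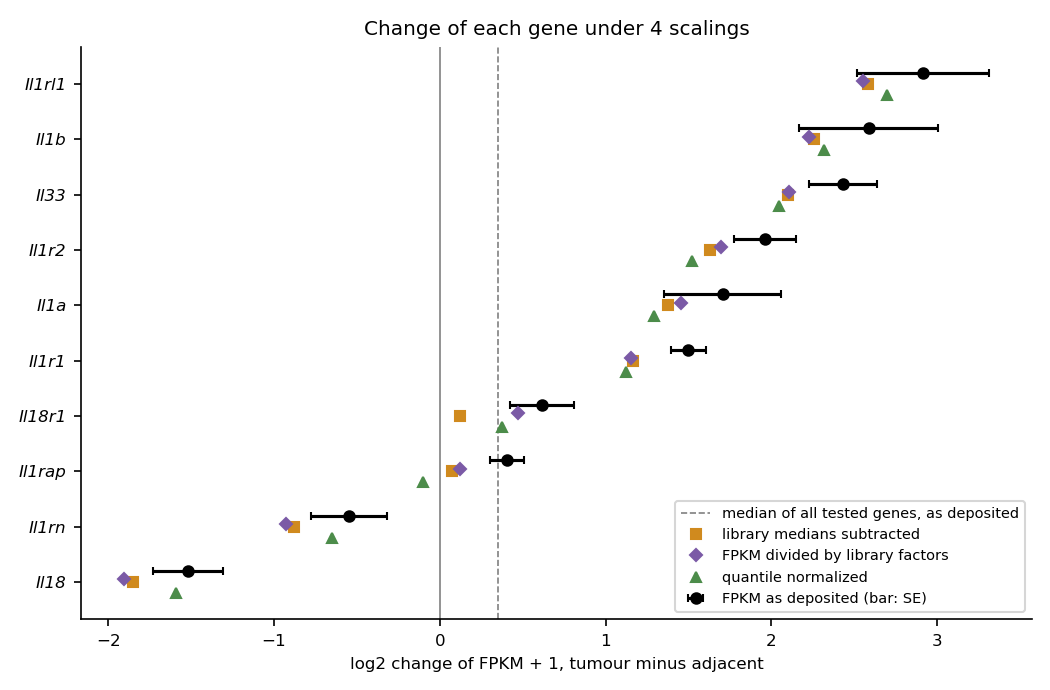
Log2 change of FPKM + 1, tumour minus adjacent, for each gene as deposited (bar, SE) and under 3 rescalings, with the median of all tested genes dashed at 0.35. The 6 largest rises and both falls keep their side of 0, while Il1rap crosses 0 and Il18r1 nears it.

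The ligand genes differed in where they lie and in the sequence before their starts. In the GENCODE M21 annotation of GRCm38 (mm10), Il1a (chromosome 2, 129299610 to 129309972, minus strand) and Il1b (chromosome 2, 129364570 to 129371139, minus strand) lie 54597 bases apart, while Il1rn lies elsewhere on the same chromosome (chromosome 2, 24336853 to 24351494, plus strand). Il33 is on chromosome 19 (29925114 to 29960718) and Il18 on chromosome 9 (50554827 to 50581840). RefSeq's GRCm38.p6 table gave 17 annotated starts for the 10 genes. The 150 bases before 1 start of each of 5 genes are shown, the 4 ligand or receptor genes with rises that include the family's largest and the antagonist gene that moved the other way, with motif matches in capitals. Each shown start holds a match, while another start of Il1rl1 and another of Il1rn had none. Il1r2, which rose more than Il1a and had no match, is not shown, nor is Il18, which fell.
Il1a, chr2:129309973-129310122, minus strand: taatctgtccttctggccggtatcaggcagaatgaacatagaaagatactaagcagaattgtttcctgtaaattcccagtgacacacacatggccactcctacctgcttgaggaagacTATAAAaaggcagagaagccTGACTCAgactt
Il1b, chr2:129371140-129371289, minus strand: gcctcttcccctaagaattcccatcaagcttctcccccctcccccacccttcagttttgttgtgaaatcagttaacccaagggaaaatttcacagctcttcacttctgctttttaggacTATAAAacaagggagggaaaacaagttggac
Il33, chr19:29945640-29945789, plus strand: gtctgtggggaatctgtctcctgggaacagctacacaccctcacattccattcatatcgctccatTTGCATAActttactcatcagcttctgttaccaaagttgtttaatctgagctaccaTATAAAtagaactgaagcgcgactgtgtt
Il1rl1, chr1:40429420-40429569, plus strand: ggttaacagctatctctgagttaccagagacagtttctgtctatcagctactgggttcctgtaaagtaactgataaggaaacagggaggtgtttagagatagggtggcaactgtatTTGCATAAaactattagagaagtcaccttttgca
Il1rn, chr2:24336710-24336859, plus strand: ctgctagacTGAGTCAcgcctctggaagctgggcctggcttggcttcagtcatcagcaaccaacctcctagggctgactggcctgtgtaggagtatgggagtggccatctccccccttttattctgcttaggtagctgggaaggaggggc
The motifs, searched on both strands in the 250 bases before each start, were the TATA box, spelled TATAAA, the AP-1 motif, spelled TGANTCA, the C/EBP motif, spelled TTGCNNAA, and a κB site, with letters GGG and TTTCC and any pair of bases between them. No match of one overlapped another. Il1a and Il1b each had TATAAA, in Il1a at positions -32 to -27 and in Il1b at -31 to -26 counted back from the start, and Il1a also had TGACTCA at -12 to -6. The shown starts of Il33 and Il1rl1 each had TTGCATAA, at -85 to -78 in Il33, which also had TATAAA at -29 to -24, and at -34 to -27 in Il1rl1. The shown start of Il1rn had TGAGTCA at -141 to -135, and another of its starts had GGGTTTTTCC at -51 to -42. Among all 32851 starts of the RefSeq table, 12.4% had the TATA box, 6.75% AP-1, 9.56% C/EBP and 1.41% the κB site. Of the 17 starts of the family, 5, 2, 3 and 1 had them in that order. A match describes letters only, with no measure of binding. The FPKM are per gene, so the starts of Il1rn, Il33 or Il1rl1, and the secreted and intracellular forms of the antagonist or the soluble and membrane forms of ST2, are not separated.

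Il1b, which encodes the secreted IL-1 agonist, had 20.0, 29.1, 62.0, 67.0 and 43.5 FPKM in tumours 1 to 5, against 3.00, 5.50, 6.70, 3.84 and 14.9 FPKM in adjacent samples 1 to 5. Every tumour lay above every adjacent sample, with tumours 1 and 2 the lowest tumours and adjacent sample 5 the highest adjacent sample. Il1b rose (log2 change 2.59, SE 0.42, limma adjusted p = 0.000268), and 0.553% of tested genes had a larger rise. The change was 2.26 with medians subtracted and 2.23 with library factors. Il1a, the gene of the agonist that is active without caspase-1, had 2.09, 3.14, 8.24, 6.48 and 9.05 FPKM in tumours 1 to 5, against 0.49, 0.73, 0.81, 0.58 and 2.27 FPKM in adjacent samples 1 to 5. The groups overlapped in 1 place, since adjacent sample 5 lay above tumour 1. Il1a rose (log2 change 1.71, SE 0.35, limma adjusted p = 0.00121), by 1.37 with medians subtracted, and without adjacent sample 5 its change was 1.90. The ratio of Il1b to Il1a was 9.19, 9.0, 7.44, 10.2 and 4.77 in tumours 1 to 5, against 5.25, 6.75, 7.47, 5.79 and 6.34 in adjacent samples 1 to 5. The groups overlapped, and the difference did not pass (0.32 on the log2 scale, two-sided exact permutation p = 0.167, adjusted over the 6 ratios to 0.2).

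Il33, an alarmin held in the nucleus of barrier and stromal cells, had 17.8, 12.5, 20.1, 24.6 and 19.3 FPKM in tumours 1 to 5, against 2.69, 1.43, 2.70, 2.58 and 4.16 FPKM in adjacent samples 1 to 5. The lowest tumour, tumour 2, was 3.01 times the highest adjacent sample, adjacent sample 5. Il33 rose (log2 change 2.43, SE 0.21, limma adjusted p = 1.48e-05), by 2.10 with medians subtracted, and 0.891% of tested genes had a larger rise. Il18, a cytokine of epithelial cells and macrophages that is matured by caspase-1, had 35.8, 40.8, 27.4, 38.2 and 17.4 FPKM in tumours 1 to 5, against 74.4, 85.8, 109, 98.9 and 84.2 FPKM in adjacent samples 1 to 5. Tumour 5 was the lowest library, and no tumour reached an adjacent sample. Il18 fell (log2 change -1.52, SE 0.21, limma adjusted p = 0.000104), to 0.353 of the adjacent mean, and its change was -1.85 with medians subtracted and -1.90 with library factors.

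Il1rn, the receptor antagonist, had 30.2, 58.8, 27.7, 46.2 and 24.2 FPKM in tumours 1 to 5, against 54.2, 64.5, 47.5, 42.1 and 55.5 FPKM in adjacent samples 1 to 5. The groups overlapped, with tumours 2 and 4 inside the adjacent range and tumours 1, 3 and 5 below it. Il1rn fell (log2 change -0.55, SE 0.23, limma adjusted p = 0.048). It no longer passed when adjacent sample 1, 2, 3 or 5, or tumour 1, 3 or 5, was dropped (7 of 10 fits, limma adjusted p from 0.0612 to 0.111) and with no expression filter (adjusted p = 0.0625). It held with medians subtracted, at -0.88 (limma adjusted p = 0.0087), and with library factors, at -0.93 (limma adjusted p = 0.00872).

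The balance of antagonist and agonist transcripts also differed between the tissues. The ratio of Il1rn to Il1b within a library, which does not depend on the library's total, was 1.51, 2.02, 0.448, 0.689 and 0.557 in tumours 1 to 5, against 17.5, 11.5, 7.00, 10.7 and 3.70 in adjacent samples 1 to 5. In tumours 3, 4 and 5 the antagonist transcript was below the agonist, and in every adjacent sample it was above. The geometric mean ratio was 10.1-fold lower in tumours (two-sided exact permutation p = 0.00794, adjusted over the 6 ratios to 0.0238), with no overlap. With 5 libraries in each group 0.00794 is the smallest p this test can give. Ratios were taken after adding 0.1 FPKM to both genes.

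Il1rl1, which encodes the IL-33 receptor ST2, had the largest rise of the family and was the most abundant member in tumours. Its values were 51.1, 37.1, 72.9, 54.7 and 105 FPKM in tumours 1 to 5, against 8.26, 2.46, 7.54, 6.51 and 16.3 FPKM in adjacent samples 1 to 5. Tumour 2 was the lowest tumour at 2.27 times adjacent sample 5, the highest adjacent sample. Il1rl1 rose (log2 change 2.91, SE 0.40, limma adjusted p = 9.71e-05), by 2.58 with medians subtracted, and 0.138% of tested genes rose more. The ratio of Il1rl1 to Il33 was 2.87, 2.95, 3.61, 2.22 and 5.40 in tumours 1 to 5, against 3.00, 1.67, 2.73, 2.47 and 3.86 in adjacent samples 1 to 5. These ranges overlapped widely, and the difference of 0.30 on the log2 scale did not pass (two-sided exact permutation p = 0.365, adjusted over the 6 ratios to 0.365), which does not show that receptor and ligand moved alike.

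Il1r1, the signalling receptor of IL-1, had 15.1, 16.1, 16.7, 15.2 and 16.0 FPKM in tumours 1 to 5, against 5.94, 3.64, 5.62, 4.62 and 5.26 FPKM in adjacent samples 1 to 5. The tumours lay close together, with a coefficient of variation of 4.26%, against 45.9% for Il1b and 40.7% for Il1rl1 in the same tumours. Il1r1 rose (log2 change 1.50, SE 0.11, limma adjusted p = 9.63e-06), and its change was 1.17 with medians subtracted. Il1r2, the decoy, had 6.09, 7.57, 5.90, 7.75 and 8.08 FPKM in tumours 1 to 5, against 1.31, 0.58, 1.08, 0.59 and 2.10 FPKM in adjacent samples 1 to 5, and rose (log2 change 1.96, SE 0.19, limma adjusted p = 1.95e-05) with no overlap. With medians subtracted the change of Il1r2 was 1.63. The ratio of decoy to signalling receptor was 0.408, 0.474, 0.357, 0.512 and 0.507 in tumours 1 to 5, against 0.233, 0.182, 0.206, 0.146 and 0.410 in adjacent samples 1 to 5. It was higher in tumours by 1.02 on the log2 scale (two-sided exact permutation p = 0.0238, adjusted over the 6 ratios to 0.0357), although adjacent sample 5 lay above tumours 1 and 3. In tumours Il1r1 still exceeded Il1r2 in all 5 libraries.

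Il1rap, the accessory chain shared by the IL-1 and IL-33 receptors, had 2.68, 3.49, 3.85, 3.77 and 3.34 FPKM in tumours 1 to 5, against 2.20, 2.28, 2.75, 2.37 and 2.05 FPKM in adjacent samples 1 to 5. Only tumour 1 lay within the adjacent range, below adjacent sample 3. Il1rap passed as deposited (log2 change 0.41, SE 0.10, limma adjusted p = 0.00391), but its change was close to the median of all tested genes. It was 0.08 with medians subtracted (limma adjusted p = 0.531), 0.12 with library factors (adjusted p = 0.319) and, after quantile normalization, -0.10 (adjusted p = 0.396). Il18r1, the ligand-binding chain of the IL-18 receptor, had 0.69, 2.59, 0.84, 0.95 and 0.81 FPKM in tumours 1 to 5, against 0.43, 0.50, 0.51, 0.21 and 0.19 FPKM in adjacent samples 1 to 5. Tumour 2 stood above the other tumours, and no tumour overlapped the adjacent samples. In the fit with no filter Il18r1 passed (log2 change 0.62, SE 0.19, limma adjusted p = 0.019), but not with medians subtracted (0.12, adjusted p = 0.601) or library factors (0.47, adjusted p = 0.0769), and without tumour 2 it was 0.42 (adjusted p = 0.00287). The T cell marker list (mean of log2(FPKM + 1) over 10 genes) was also highest in tumour 2, at 2.48, against 1.32 to 1.80 in the other tumours, and its part in the Il18r1 value was not tested.

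The balance of IL-18 receptor and ligand transcripts differed between the tissues. The ratio of Il18r1 to Il18 was 0.0220, 0.0657, 0.0342, 0.0274 and 0.0519 in tumours 1 to 5, against 0.00711, 0.00698, 0.00559, 0.00313 and 0.00344 in adjacent samples 1 to 5, which is 7.49-fold higher in tumours (two-sided exact permutation p = 0.00794, adjusted over the 6 ratios to 0.0238) with no overlap. Il18bp, the soluble IL-18 binding protein, did not pass, at 7.12 ± 3.17 FPKM in tumours and 7.80 ± 2.83 FPKM in adjacent tissue (log2 change -0.15, SE 0.27, limma adjusted p = 0.625). Its ratio to Il18 was 0.142, 0.243, 0.198, 0.295 and 0.245 in tumours 1 to 5, against 0.0900, 0.149, 0.0681, 0.0714 and 0.0652 in adjacent samples 1 to 5, higher in tumours by 1.37 on the log2 scale (two-sided exact permutation p = 0.0159, adjusted over the 6 ratios to 0.0317), although adjacent sample 2 lay above tumour 1.

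**Figure D3:**
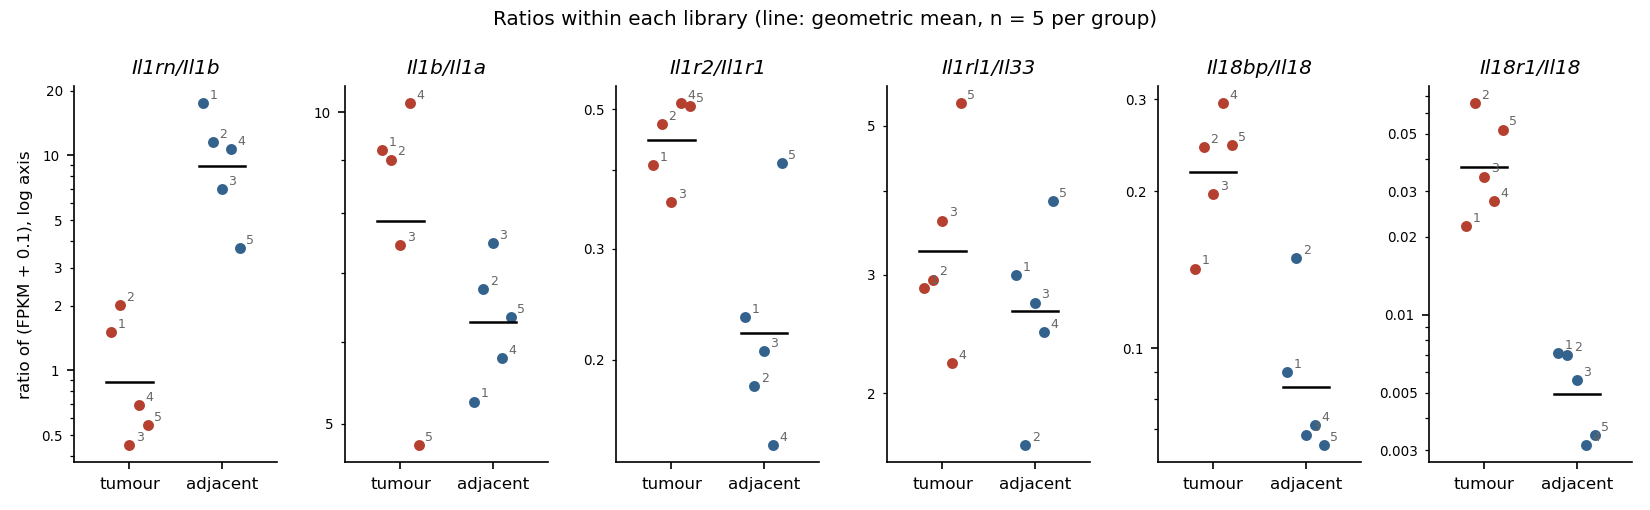
Ratios of FPKM + 0.1 within each library on log axes, tumours left and adjacent samples right, with points numbered by library and the geometric mean as a line (n = 5 per group). Il1rn/Il1b is lower and Il18r1/Il18 higher in all 5 tumours than in any adjacent sample, while Il1b/Il1a and Il1rl1/Il33 overlap.

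The order of levels, which FPKM allows since it is per transcript length, changed between the tissues. In tumours Il1rl1 led with a mean of 64.1 FPKM, followed by Il1b, Il1rn and Il18 at 44.3, 37.4 and 31.9 FPKM. These neighbours were not separated by their spread, since each exceeded the next in only 3 or 4 of 5 tumours. In adjacent tissue Il18 and Il1rn led, at 90.5 and 52.7 FPKM, in that order in 5 of 5 samples and above all other members. Together Il18 and Il1rn made up 16.9% to 47.2% of the summed FPKM of the 10 genes in tumours, against 74.7% to 89.8% in adjacent samples. Il1rl1 made up 17.6% to 42.5% in tumours, against 1.47% to 8.73% in adjacent samples. The summed level overlapped slightly, at 182 to 265 FPKM in tumours and 153 to 187 FPKM in adjacent samples. Il18r1 was the least abundant member in both tissues.

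Of the 5 receptor genes, 4 lie in 1 cluster on chromosome 1 with Il1rl2 and Il18rap, in the order Il1r2, Il1r1, Il1rl2, Il1rl1, Il18r1, Il18rap over 477627 bases of the plus strand (chromosome 1, 40074079 to 40551705, GRCm38). Il1rl1 ends 136 bases before Il18r1 starts, on the same strand. The levels of these neighbours differed widely, since Il1rl1 averaged 64.1 ± 26.1 FPKM in tumours and 8.22 ± 5.06 FPKM in adjacent tissue and Il18r1 1.18 ± 0.796 FPKM in tumours and 0.368 ± 0.157 FPKM in adjacent tissue. Il18rap, the signalling partner of Il18r1, rose (log2 change 1.04, SE 0.11, limma adjusted p = 2.97e-05) from a low level, with 1.40, 1.77, 2.00, 2.24 and 1.82 FPKM in tumours 1 to 5, against 0.46, 0.35, 0.43, 0.18 and 0.50 FPKM in adjacent samples 1 to 5. Il18rap met the filter only through the tumours, with means of 1.85 FPKM in tumours and 0.384 FPKM in adjacent tissue. Il1rl2, the IL-36 receptor, rose (log2 change 0.54, SE 0.16, limma adjusted p = 0.012), but did not pass with medians subtracted (0.20, adjusted p = 0.271). Genes beside the cluster also changed, since the kinase gene Map4k4 before the cluster rose by 2.02 (SE 0.19) and the sodium-proton exchanger gene Slc9a4 after it by 1.43 (SE 0.26). The next gene, Slc9a2, another exchanger, fell by 3.28 (SE 0.41). These 3 neighbours were looked up after values of the receptors were known, and their limma adjusted p was 0.000521 or lower.

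**Figure D4:**
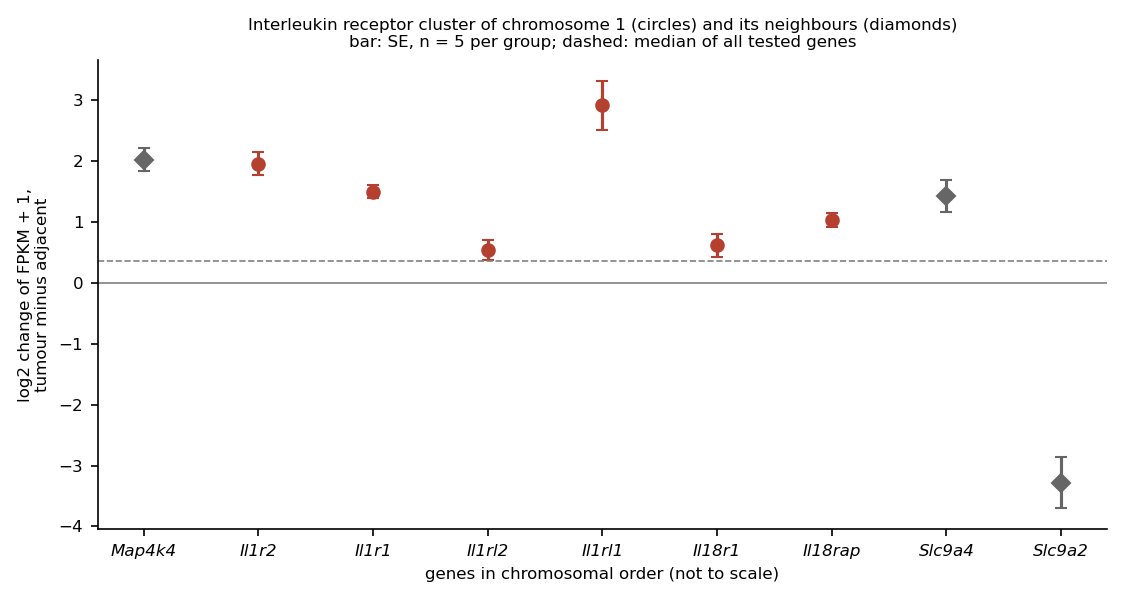
Log2 change of FPKM + 1 (tumour minus adjacent, bar SE, n = 5 per group) for the interleukin receptor genes of chromosome 1 in their order, not to scale, with their neighbours as diamonds. All 6 receptor genes lie above 0, from 0.54 for Il1rl2 to 2.91 for Il1rl1, and Slc9a2 lies at -3.28.

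Among 11 other ligand, receptor and binding genes of the family, 5 met the filter, 3 rose and 1 fell. These counts were near the shares of all tested genes (57.2% and 19.3%). Their median log2 change was 0.54, against 0.35 over all tested genes. With medians subtracted 2 rose and 1 fell, against 34.5% and 33.3% of all tested genes. Il1f9, the gene of IL-36γ, rose (log2 change 1.34, SE 0.22, limma adjusted p = 0.000239), with 3.00, 2.48, 5.35, 6.22 and 3.60 FPKM in tumours 1 to 5, against 0.98, 0.92, 1.02, 0.46 and 1.53 FPKM in adjacent samples 1 to 5, and no overlap. It averaged 0.982 FPKM in adjacent tissue and met the filter only through the tumours. Sigirr, a receptor that dampens IL-1 signalling in epithelium, fell (log2 change -0.23, SE 0.07, limma adjusted p = 0.0124), and its change was -0.56 with medians subtracted and -0.60 with library factors. The other IL-36 ligand genes Il1f6 and Il1f8, the antagonist gene Il1f5, Il1f10, Il1rapl1 and Il1rapl2 were below the filter.

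Of 16 genes that carry the signal from the receptors to NF-κB 11 rose and 3 fell, near the shares of all tested genes (57.2% and 19.3%). Their median log2 change was 0.26. With medians subtracted 4 rose and 5 fell, against 34.5% and 33.3% of all tested genes. With library factors 4 rose and 6 fell, against 34.7% and 34.9%. The IκB kinase gene Ikbkb rose by 0.70 (SE 0.08), the receptor kinase gene Irak1 by 0.70 (SE 0.07) and the NF-κB subunit gene Rela by 0.69 (SE 0.07), and each also rose with medians subtracted. Irak4, the kinase recruited by MyD88, and Peli1, a ubiquitin ligase, fell by 0.51 (SE 0.13) and 0.50 (SE 0.08), and Chuk, an IκB kinase gene, by 0.24 (SE 0.06). With medians subtracted Irak4 was at -0.84, Peli1 at -0.83 and Chuk at -0.57.

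Genes that process the cytokines split by direction. Of 12 tested genes 5 rose and 5 fell, against 57.2% and 19.3% of all tested genes, and the median log2 change was -0.20. After subtracting medians 2 rose and 5 fell, against 34.5% and 33.3% of all tested genes. With library factors 1 rose and 6 fell, against 34.7% and 34.9%. Casp1, the protease that matures IL-1β and IL-18, had 29.2, 56.0, 31.0, 47.7 and 19.0 FPKM in tumours 1 to 5, against 92.4, 105, 92.6, 96.5 and 69.0 FPKM in adjacent samples 1 to 5, with no overlap. It fell (log2 change -1.38, SE 0.26, limma adjusted p = 0.000649), opposite in direction to Il1b. The inflammasome adaptor gene Pycard fell by 1.64 (SE 0.25) and the epithelial sensor gene Nlrp6 by 2.29 (SE 0.13). Nlrp3, the sensor of myeloid cells, rose by 1.31 (SE 0.15), at 2.40 ± 0.614 FPKM in tumours and 0.368 ± 0.190 FPKM in adjacent tissue. Nlrp3 met the filter only through the tumours. Ctsc, which activates serine proteases of neutrophils, rose by 0.77 (SE 0.15), but with library factors it was at 0.40 and did not pass (limma adjusted p = 0.0575). The calpain gene Capn2 rose by 0.51 (SE 0.11), or 0.18 with medians subtracted, where Capn2 did not pass (adjusted p = 0.194). The neutrophil proteases Elane, Prtn3 and Ctsg, which can cleave IL-1 family cytokines, were below the filter.

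Genes known to respond to IL-1 were mostly higher in tumours, though other signals induce them too. Of 22 tested 18 rose and 3 fell, against 57.2% and 19.3% of all tested genes, and the median log2 change was 2.09. With medians subtracted 17 rose and 3 fell, against 34.5% and 33.3%. The matrix metalloproteinase genes Mmp10 and Mmp13 rose by 3.46 (SE 0.67) and 3.16 (SE 0.70), and the acute-phase gene Saa3 by 3.05 (SE 0.35). The deubiquitinase gene Tnfaip3 fell by 0.54 (SE 0.16), and Nfkbiz, an atypical IκB gene, by 0.33 (SE 0.10). With medians subtracted Tnfaip3 was at -0.87 and Nfkbiz at -0.66. The ribonuclease gene Zc3h12a fell by 0.41 (SE 0.16, limma adjusted p = 0.0354), but did not pass without adjacent sample 2, 3 or 5 or tumour 3, 4 or 5 (limma adjusted p up to 0.0853), and was at -0.75 with medians subtracted. Il6, Csf2 and Csf3 were below the filter. In the fit with no filter they passed as higher in tumours (limma adjusted p = 0.00509, 0.0139 and 0.0181). They also passed with library factors, but with medians subtracted Csf2 and Csf3 did not.

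Genes of cells that carry ST2, or that respond to IL-18, were largely below the filter of the main fit. In the fit with no filter, in which 44.5% of genes rose, Rora, Il2ra, Ccr8, Il12rb1 and Il12rb2 passed as higher in tumours. Il22ra2 passed as lower. With medians subtracted none of these rises passed, and with library factors only Rora, Il2ra and Il12rb1 did. These low genes are named after their values were seen. Of 12 type 2 and ST2-linked genes only Foxp3 and Areg met the filter. Foxp3, the factor of regulatory T cells, rose by 0.69 (SE 0.25, limma adjusted p = 0.0277), but not with medians subtracted (0.36, adjusted p = 0.238). Areg, amphiregulin, fell by 1.10 (SE 0.45, limma adjusted p = 0.0467). Its change was -1.43 with medians subtracted (limma adjusted p = 0.0213) and -1.47 with library factors (adjusted p = 0.0205). Foxp3 met the filter only through the tumours, at 1.53 FPKM in tumours and 0.494 FPKM in adjacent tissue. It did not pass without adjacent sample 2, 4 or 5 and fell below the filter without tumour 1, 2 or 4, and Areg did not pass without tumour 1, 3 or 5 or any one adjacent sample, so with 1 library left out 0 or 1 of the 2 passed. The type 2 cytokine genes Il4, Il5 and Il13 had means of at most 0.0580 FPKM in tumours and 0.0420 FPKM in adjacent tissue. Of 9 genes linked to IL-18 only Il22ra1, the epithelial IL-22 receptor, met the filter, and it fell by 1.61 (SE 0.28, limma adjusted p = 0.000474). Il22ra2, the soluble IL-22 binding protein, was below the filter and is named after its values were seen. It had 0.03, 0.05, 0, 0 and 0.03 FPKM in tumours 1 to 5, against 0.85, 0.78, 2.57, 1.38 and 0.36 FPKM in adjacent samples 1 to 5.

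**Figure D5:**
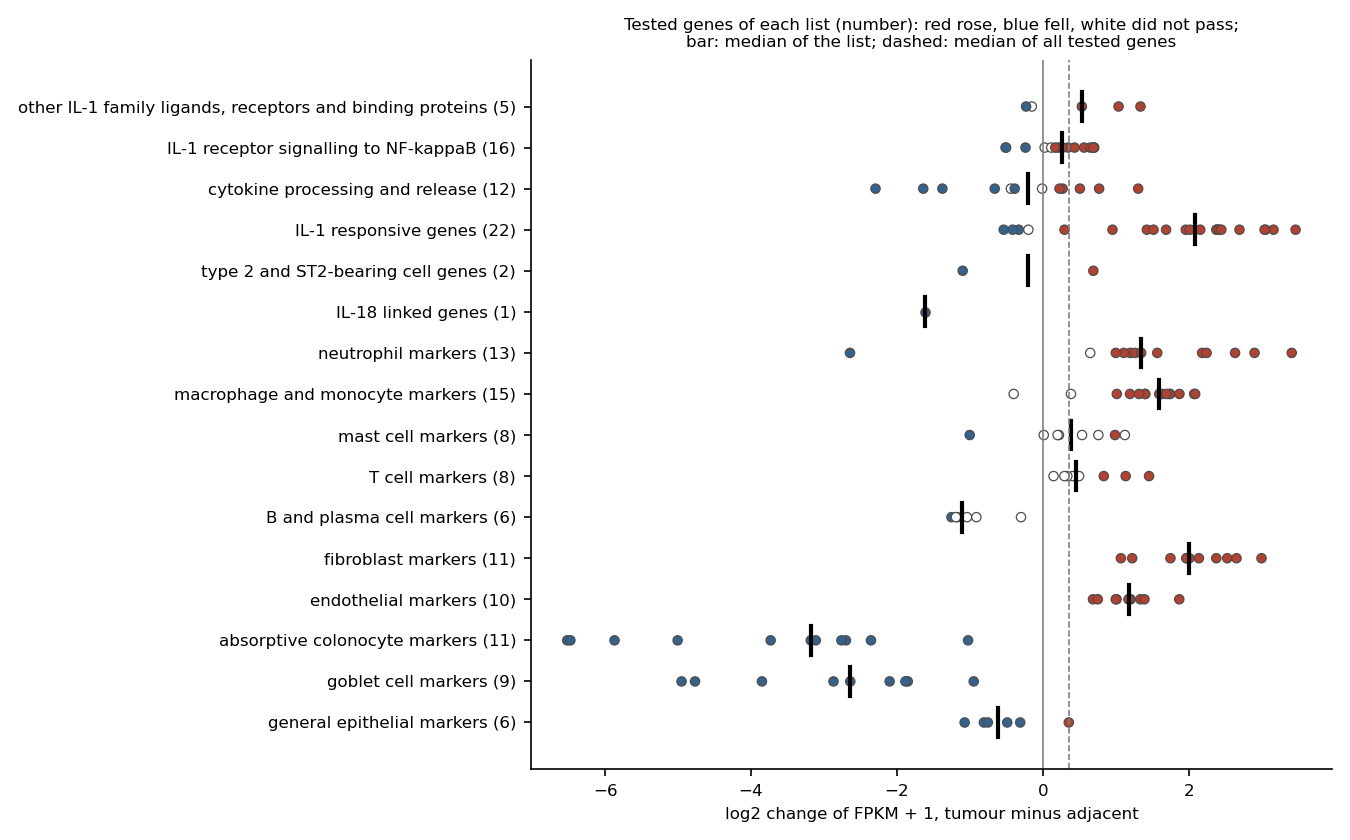
Log2 change of FPKM + 1, tumour minus adjacent, for the tested genes of each list (points, number tested in brackets), filled where limma's adjusted p passed, with the list median as a bar and the median of all tested genes dashed. The IL-1 responsive, neutrophil, macrophage and fibroblast lists lie mostly to the right of 0, and the colonocyte and goblet cell lists wholly to its left.

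The cell type markers also differed between the groups, and their part in the changes of the IL-1 family was not tested. Of all tested genes 57.2% rose and 19.3% fell. Beside Il1b and Il1a, 11 of 13 neutrophil markers rose and Ly6g fell. The list summed to 198 to 506 FPKM in tumours, against 110.5 to 366 FPKM in adjacent samples. Ly6g weighed heavily on the adjacent sums, at 31.5 ± 24.3 FPKM in tumours and 169 ± 66.9 FPKM in adjacent tissue. The mean log2(FPKM + 1) of the neutrophil list was 2.61 to 3.72 in tumours. In adjacent sample 5 this mean was 2.77, against 1.22 to 1.61 in the other adjacent samples. Camp was listed at 0 in 2 tumours and 4 adjacent samples, and Ngp in 3 adjacent samples. Of the macrophage and monocyte markers 13 of 15 rose and none fell, summing to 749 to 1249 FPKM in tumours, against 158 to 393 FPKM in adjacent samples. Beside Il33, Il1r1 and Il1rl1, all 11 tested fibroblast markers rose, and the list of 12 summed to 686 to 1135 FPKM in tumours, against 96.4 to 237 FPKM in adjacent samples. The 12th, Fap, was below the filter and lower in tumours, at 0.512 ± 0.190 FPKM in tumours and 1.06 ± 0.129 FPKM in adjacent tissue (no-filter fit, log2 change -0.45, SE 0.10, limma adjusted p = 0.00242). All 10 endothelial markers rose, summing to 85.3 to 128 FPKM in tumours, against 25.1 to 51.4 FPKM in adjacent samples. Of 8 tested mast cell markers, a cell type that carries ST2, 1 rose and 1 fell, summing to 58.5 to 152 FPKM in tumours, against 49.1 to 139 FPKM in adjacent samples. The rise, of Cma1, did not pass under any of the 3 rescalings. The number of mast cell markers called was 4 without tumour 3, 3 without adjacent sample 5, and 1 without tumour 1 or 5 or adjacent sample 2, 3 or 4. Of 8 tested T cell markers 3 rose, summing to 19.0 to 51.9 FPKM in tumours, against 9.69 to 19.5 FPKM in adjacent samples. Of 6 tested B and plasma cell markers 2 fell, summing to 112 to 621 FPKM in tumours, against 227 to 551 FPKM in adjacent samples. With medians subtracted 4 of the 6 fell, against 33.3% of all tested genes, and with library factors also 4, against 34.9%. Jchain, at 147 FPKM in tumours and 226 FPKM in adjacent tissue, and Xbp1, at 98.6 and 120 FPKM, weighed most on these sums. Neither passed as deposited. The number called among B and plasma cell markers was 6 without tumour 2, 4 without adjacent sample 5, 1 without tumour 5 or adjacent sample 1 or 2, and 0 without adjacent sample 3. Pax5, which defines B cells, was listed at 0 in 2 tumours and 1 adjacent sample. Beside Il18, Il1rn and Casp1, all 11 absorptive colonocyte markers and all 9 goblet cell markers fell, summing to 319 to 1529.8 FPKM in tumours, against 4037 to 6204 FPKM in adjacent samples, and to 1474 to 4339 FPKM in tumours, against 15250.3 to 18654 FPKM in adjacent samples. Of 6 general epithelial markers, all detected in every library, 5 fell and 1 rose, with a median of -0.62, while Il18 had -1.52. Tumours 2 and 4 had the highest tumour means of the colonocyte and goblet cell lists and the highest tumour levels of Il18, Il1rn, Casp1 and Pycard.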

How the data were processed

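RNA was extracted with TRIzol, selected with oligo-dT beads and made into TruSeq RNA v2 libraries, per the labels' protocols. Build mm10, TopHat2 2.1.0, and the programs Salmon 0.8.2, RSEM 1.2.15, Cufflinks 2.2.1, GATK, DESeq2 1.14.1 and edgeR 3.16.5 come from the submitters' processing notes, which do not say which of them made the table. The authors deposited FPKM per gene, per the file headers, summing to 462009 to 484712 per library; 1 row of text was left out. Depth is not stated. Steps between low FPKM of genes with 1 annotated transcript put it at roughly 21300000 to 26500000 fragments, or 25400000 to 32200000 with 150 bases taken off each length; no counting interval was computed.

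As planned for a table of FPKM rather than counts, log2(FPKM + 1) was modelled in limma 3.58.1 (R 4.3.3) on group alone, with trended, robust empirical Bayes moderation, two-sided. A pseudocount understates changes of low genes. Ratios were tested by exact permutation of the 252 splits in Python 3.11.15. Both were tested on simulated data. The 10 members and the 16 gene lists were chosen with earlier results of these data known. Named genes are all members, both genes of each ratio and, per pathway list, up to 3 largest rises and 3 largest falls that passed. Some genes below the filter and the neighbours of the receptor cluster are named besides. Cell type lists are given by counts and sums, and the few of their genes named were not all picked by that rule. Reads carry no strand with this kit. The IL-36 genes were matched by their older symbols. Alternatives were the pseudocount, the filter, 3 rescalings, a replicate block, no trend, and leaving out libraries. Library factors were added after seeing the data, because subtracting medians on this scale weighs more on low genes.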

Additional observations from a re-analysis of the deposited data

Results flagged for a closer look

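In a check for a single library far from the other 4 of its group, over 64 sets of 5 values (the members, the ratios and the list means), 3 sets held 1 value apart from the rest by Dixon's test at 95%. Chance alone flags about 1 in 20 such sets. Il1a was at 2.27 FPKM in adjacent sample 5, against 0.490 to 0.810 FPKM in the other adjacent samples. The neutrophil list mean was 2.77 on the log2(FPKM + 1) scale in the same sample, against 1.22 to 1.61. Adjacent sample 5 was also the highest adjacent sample for Il1b, Il1r2, Il33 and Il1rl1, and without it their changes were 2.89, 2.11, 2.56 and 3.19 on the log2 scale, each past the threshold. Il18r1 was at 2.59 FPKM in tumour 2, against 0.690 to 0.950 FPKM in the other tumours.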

How the results depend on the processing

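Il1a, Il1b, Il33, Il1r1, Il1r2, Il1rl1 and Il18 kept their direction and passed under all alternatives run in which they were tested, 20 for Il1b. The 7 rises stayed 7 with any one library left out; they were 4 at a mean of at least 5 FPKM, where fewer genes are tested, and 6 under each rescaling, since Il1rap did not pass, at -0.10 with quantile normalization. The 2 falls were 1 with no filter and 1 to 2 with 1 library left out, since Il1rn did not always pass. Over all genes calls numbered 9386 to 10192 with 1 library left out. With library factors 4523 rose and 4537 fell, against 7442 and 2509 as deposited. Of the non-members, Krt18 was at -0.035 with library factors and Il18bp at 0.021 without adjacent sample 2 and -0.32 without tumour 4, none past the threshold. Without tumours 2 and 4 together, which had its highest tumour levels, Il18bp passed as lower, at -0.54 (limma adjusted p = 0.0439).

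Of 6 ratios 4 passed, also with any one library left out. Il1b/Il1a passed as a further ratio without tumour 5 (0.50 on the log2 scale) and with 1 FPKM added (0.88). Without tumours 2 and 4 together, 0 passed, at an adjusted exact permutation p of 0.0536 for Il1rn/Il1b (-3.62) and Il18r1/Il18 (2.77), in a smaller design. Those tumours also had the highest Il1rn and Il18bp, so their removal is no check of either gene. With the replicate block 0 passed, since 0.0625 is the smallest exact p that 5 pairs allow. Deviations from the group means correlated at r from 0.02 to 0.42 between like-numbered libraries, and from -0.44 to 0.32 between unlike-numbered ones. These ranges overlap and the labels do not settle the pairing, so the numbers were not taken to pair libraries. In limma the block gave 10067 genes differing between tumour and adjacent tissue and the same count of members, 7 up and 2 down. Low FPKM in adjacent tissue rest on few fragments.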

Other observations

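The spread among tumours, as the coefficient of variation of FPKM, was 4.26% for Il1r1, 13.6% for Il1rap and 14.2% for Il1r2, against 23.1% for Il33, 29.9% for Il18, 39.0% for Il1rn, 40.7% for Il1rl1, 45.9% for Il1b, 53.0% for Il1a and 67.7% for Il18r1. Tumour 1 had the lowest tumour value of 5 members, Il1a, Il1b, Il1r1, Il1rap and Il18r1, and tumour 2 the lowest of Il33 and Il1rl1. Tumour 5 had the highest Il1a, Il1r2 and Il1rl1 and the lowest Il1rn and Il18 of the tumours.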
